A study of Danio rerio with 12 samples.

Results

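The genes of mitosis and of the G2/M transition were followed through 12 Quartz-seq libraries of cells from the adult zebrafish kidney, the main blood-forming organ of adult fish. The set was taken by gene name, from cyclins and Cdk1 to condensin. Of 43 listed genes, 41 matched 1 identifier each among the 32047 in the files, and cenpa and incenp, which were not matched, are not analysed here. The genes listed as prc1a and prc1b matched as 2 copies with the symbol PRC1 (ENSDARG00000005993 and ENSDARG00000100918). They are told apart here by identifier only, and reads of copies this alike can be split between them in counting.

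All samples were labelled as wild-type adult fish, with cells sorted from the kidney, and every group held 2 libraries. A niche set held ZKS cells, pericytes (titled pdgfrb) and sinusoids (titled Ac-LDL-hi, for high uptake of acetylated low-density lipoprotein). ZKS is also the name of a stromal cell line grown in culture from zebrafish kidney, and the labels do not say whether the profiled ZKS cells had been cultured. The other set held gata2a+ runx1+ cells, called double positive or DP, which were either uncultured, co-cultured with ZKS cells, or grown in that co-culture with IWR-1-endo, an inhibitor of Wnt signalling, and Thpo, the cytokine thrombopoietin (called treated here). Doses, culture times and numbers of fish are not stated in the labels. Nothing in the labels says that replicates came from separate animals, so the spread behind each p-value may be partly or wholly technical. Because these are bulk samples, fewer dividing cells and less RNA per dividing cell cannot be told apart.

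Entry into mitosis is driven by Cdk1 bound to B-type cyclins, with cyclin A2 acting in S phase and G2. Aurora, Polo and checkpoint kinases then build the spindle and hold anaphase back until every kinetochore is attached, Cdc20 turns on the ubiquitin ligase APC/C, condensin compacts the chromosomes, and centralspindlin and anillin carry out cytokinesis. Most of these genes are transcribed in G2 and M and are silent in resting cells, so their messenger RNAs are widely used as marks of dividing cells. In the fish kidney they are well known from dividing blood progenitors.

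Values are CPM, the reads of a gene divided by all counted reads of its library and put on a common scale. In the niche set whole reads could be recovered from the CPM, which gave 6984492 to 16242092 reads per library, and 3 reads, the floor used below, were 0.185 to 0.43 CPM. DP values gave no read numbers, so their depth is unknown and a 0 there says no more than "listed at 0". Between 15545 and 20626 genes were above 0 in the niche libraries and between 7329 and 9712 in the DP libraries. The labels were set against marker genes. The endothelial gene cdh5 was at 795 and 685 CPM in sinusoids and at 0 in both ZKS libraries, and pdgfrb was highest in pericytes at 125 and 124 CPM. Not all endothelial genes were absent from ZKS cells. There kdrl was at 78.9 and 70.7 CPM and kdr at 47.3 and 39.5 CPM. In sinusoids kdrl was at 2950 and 2863 CPM and kdr at 175 and 189 CPM. In DP cells the identifier with the symbol RUNX1, a gene that names the sort, was at 6.3 and 6.1 CPM uncultured and at 0.1 CPM or 0 in the 4 co-culture libraries, while that of GATA2 ranged from 9.1 to 319.8 CPM over the 6 libraries with no order by group. Changes were tested with limma on log2(CPM + 1) after TMM scaling (the trimmed mean of M-values, which corrects for differences in RNA composition), and a gene was called where its p adjusted by Benjamini-Hochberg over all genes tested was under 0.05. Because of the added 1, log2 changes of low genes are smaller than their true ratios.

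**Figure D1:**
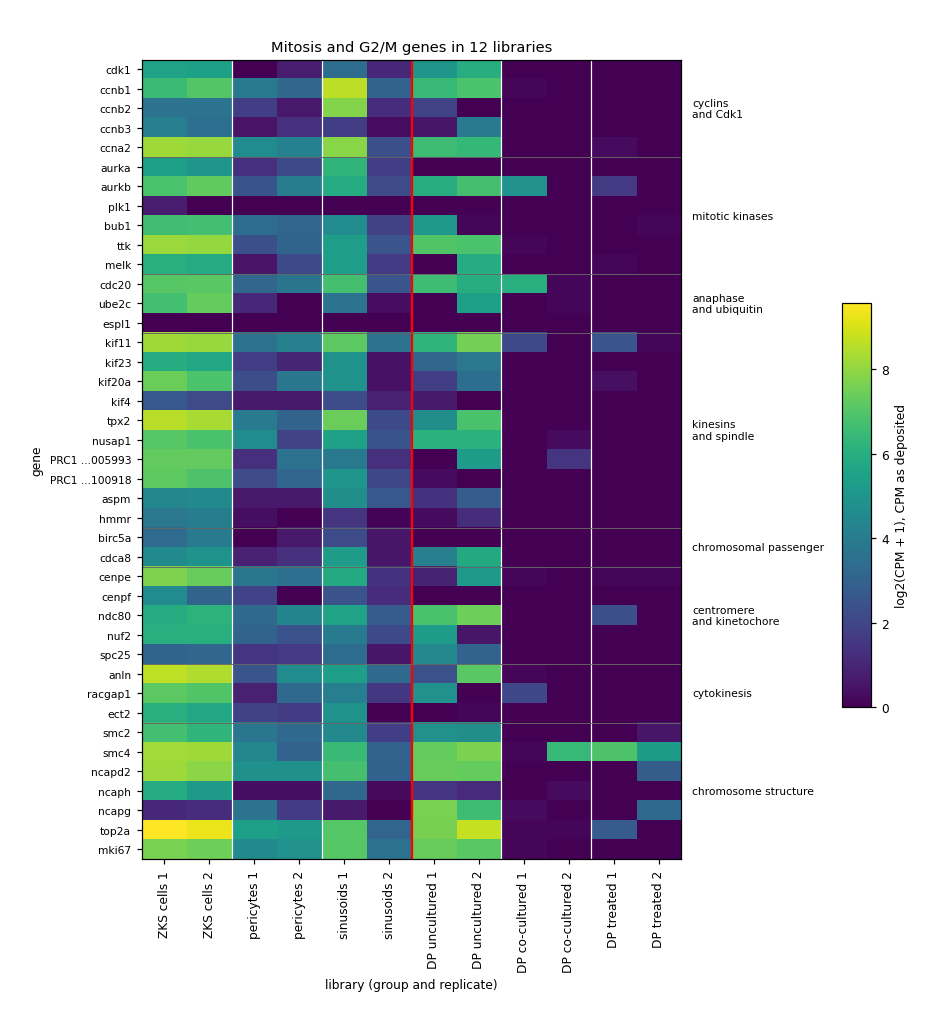
Level of the 41 mitosis and G2/M genes (rows, grouped by role) in the 12 libraries (columns), as log2(CPM + 1) of the deposited CPM. White lines part the groups and the red line parts the niche set from the DP set, which were deposited separately. Levels stood high in both ZKS libraries, the first sinusoid library and both uncultured DP libraries, and near 0 in the 4 co-culture libraries.

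ZKS cells carried the mitosis genes at far higher levels than pericytes. Summed over the 41 genes, the ZKS libraries held 5403 and 4902 CPM and the pericyte libraries 311 and 318 CPM, and 35 of the 41 stood at 10 CPM or more in each ZKS library against 12 in each pericyte library. Of the 39 genes that passed the filter on low values, 23 were higher in ZKS cells and 0 were lower, where of all 15916 genes tested 37.3% were called, 14.7% higher and 22.6% lower. At an unadjusted p under 0.05 stood 34 of the 39, with ncapg the 1 in the lower direction, beside 47.6% of all genes. DESeq2 on the recovered reads called 32 higher and 0 lower, beside 2003 and 3967 of all genes. Their median log2 change was 3.42, from -1.79 for ncapg to 6.20 for ube2c, and the median over all genes tested was -0.19. Without any test, both ZKS libraries lay above both pericyte libraries in 38 of the 41 genes, against 21.6% of all identifiers, and ncapg alone lay below them. The other 2, plk1 and espl1, did not pass the filter: plk1, the Polo-like kinase, was at 0.65 CPM in ZKS replicate 1 and at 0 in the other niche libraries, and espl1, the separase that cuts cohesin, was at 0 in all 12 libraries. The count of calls rested on single libraries, and so did that over all genes. Almost no gene of the set stayed called with either ZKS library left out, and few did with either pericyte library left out. Each time 1 library was assumed to vary like the other groups, and the set lost a larger share of its calls than all genes did. The median log2 change of the set was 3.50 and 3.36 without ZKS replicate 1 or 2, and 3.39 and 3.55 without pericyte replicate 1 or 2. With edgeR on the recovered reads 15 of the 39 were called, all higher, beside 4047 of all 15916 genes. In a limma fit of only the 4 libraries compared, 36 of the 39 were called, all higher, beside 6934 of 14392 genes. The main fit, used below for calls by gene and role, takes its spread from the sinusoid libraries as well. On unscaled CPM, 27 of the 39 were higher and 0 lower, and all genes split into 3168 higher and 3021 lower in place of 2340 and 3597.

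Against sinusoids the ZKS cells were also the higher group, with a wider spread. Of the 39 genes tested, 17 were higher in ZKS cells and 0 lower, where 31.5% of all genes tested were called, 14% higher and 17.5% lower. At an unadjusted p under 0.05 stood 25 of the 39, beside 42.9% of all genes. DESeq2 called 16 higher and 0 lower, beside 2216 and 3524 of all genes. The median log2 change was 2.81, from -1.07 for ccnb2 to 4.86 for ube2c, beside -0.09 over all genes. Both ZKS libraries lay above both sinusoid libraries in 32 of 41 genes, against 20.3% of all identifiers, and below them in 0, against 20.1%. No gene of the set stayed called with either ZKS library left out, where calls over all genes fell but did not vanish. Fewer of the set were called with either pericyte library left out, while calls over all genes stayed about the same. In each of these fits the share called over all genes was above that of the set. The median log2 change was 2.84 and 2.83 without ZKS replicate 1 or 2, and 2.77 without either pericyte library. It was 4.16 without sinusoid replicate 1 and 1.28 without sinusoid replicate 2, where ccnb1 stood at -1.90 and ccnb2 at -4.23. With edgeR on the recovered reads 5 of the 39 were called, a smaller share than the 4059 of all 15916 genes. Both comparisons use the same ZKS libraries. In all, 31 of the 41 genes (75.6%) were higher in both ZKS libraries than in all 4 other niche libraries, a pattern that 14.9% of all identifiers showed. Of all 32047 identifiers, 24998 were above 0 in a niche library. The rest could not show such an order and lower the shares of all identifiers given here and against pericytes.

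**Figure D2:**
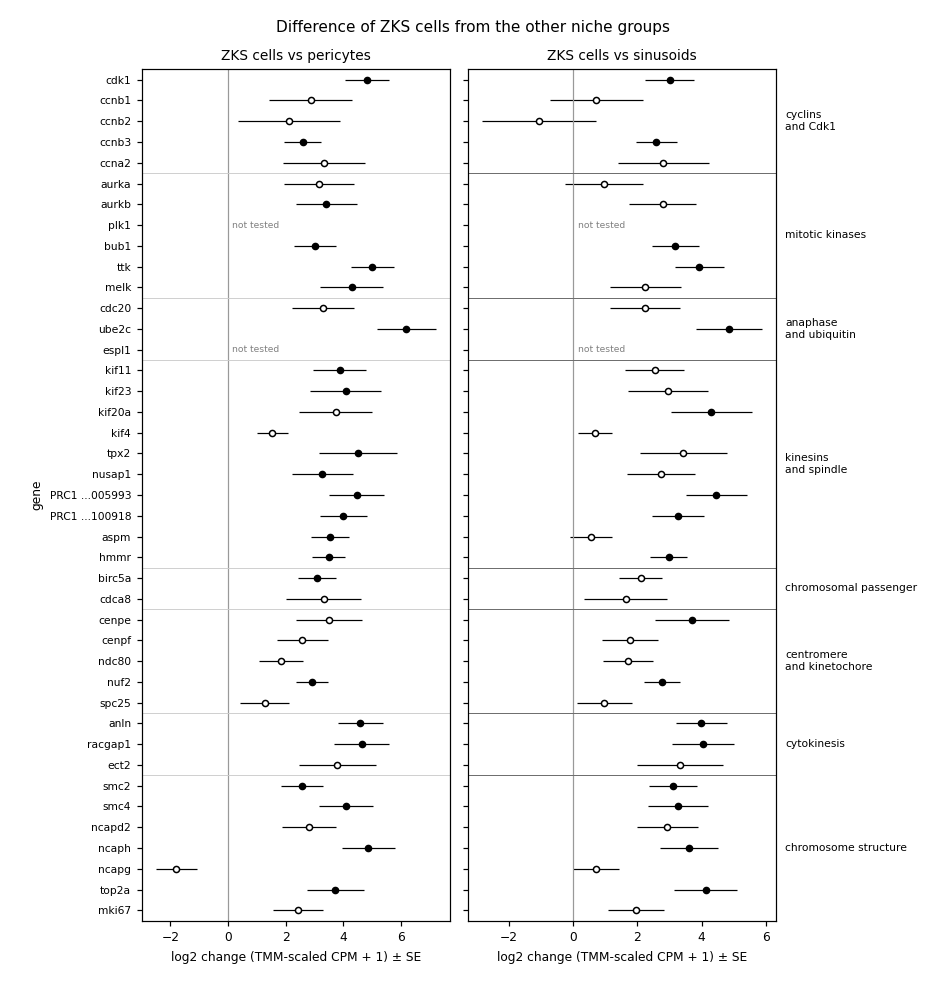
Log2 change of each gene in ZKS cells against pericytes (left) and sinusoids (right), on TMM-scaled CPM + 1, with the standard error of the limma fit. Filled points passed an adjusted p of 0.05 and open points did not. On the left 23 points are filled, all to the right of 0, and ncapg lies to the left at -1.79; on the right 17 points are filled, and the B-type cyclins ccnb1 and ccnb2 lie near or below 0 with wide errors.

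Among the cyclins and their kinase, 2 of 5 were called higher in each ZKS comparison, and they were cdk1 and ccnb3 in both. The master mitotic kinase cdk1 was at 44.7 and 42.1 CPM in the ZKS libraries, 0 and 0.72 in pericytes and 9.80 and 1.11 in sinusoids. It was higher in ZKS cells than in pericytes by 4.81 ± 0.76 on the log2 scale (SE, limma adjusted p = 0.00411) and than in sinusoids by 3.01 ± 0.76 (adjusted p = 0.0244). The B-type cyclin ccnb3 was at 16.1 and 10.3 CPM in ZKS cells, and at 2.39 CPM or less in the other 4 niche libraries. The remaining cyclins differed in that 1 sinusoid library stood near or above the ZKS cells. Cyclin A2, encoded by ccna2, was at 295.5 and 273 CPM in the ZKS libraries, 23.6 and 17.3 in pericytes and 234 and 4.06 in sinusoids. Cyclin B1, ccnb1, was at 92.3 and 129 CPM in the ZKS libraries, 13.8 and 7.87 in pericytes and 389.5 and 7.14 in sinusoids. Cyclin B2, ccnb2, was at 11.5 and 11.5 CPM in the ZKS libraries, 2.43 and 0.57 in pericytes and 224 and 1.35 in sinusoids. For these 3 genes the ZKS libraries lay above both pericyte libraries without passing the test (limma adjusted p = 0.108 for ccna2, 0.163 for ccnb1 and 0.382 for ccnb2). The sinusoid libraries lay on both sides of the ZKS values for ccnb1 and ccnb2. Their spread entered the test against pericytes too, since the 3 niche groups share an estimate of the spread.

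Of 5 mitotic kinases tested, 4 were higher in ZKS cells than in pericytes and 2 than in sinusoids. The spindle checkpoint kinase ttk was at 282 and 265 CPM in the ZKS libraries, 4.0 and 7.45 in pericytes and 39.3 and 4.74 in sinusoids. Its difference from pericytes was 5.01 ± 0.75 (adjusted p = 0.0033) and from sinusoids 3.94 ± 0.75 (adjusted p = 0.00854). Aurora B, aurkb, which corrects faulty kinetochore attachments, was at 117 and 149.9 CPM in the ZKS libraries, 4.57 and 15.2 in pericytes and 58.6 and 3.57 in sinusoids. It was called against pericytes (3.42 ± 1.05, adjusted p = 0.041) and not against sinusoids (2.79 ± 1.05, adjusted p = 0.0866), although no library of those groups reached the ZKS values. The checkpoint kinase bub1 was called in both comparisons, and melk, the maternal embryonic leucine zipper kinase, against pericytes. Aurora A, aurka, the kinase of the spindle poles, was the one tested kinase not called against pericytes (3.16 ± 1.21, adjusted p = 0.082). It stood at 42.0 and 31.5 CPM in the ZKS libraries, 1.43 and 3.44 in pericytes and 76.7 and 2.46 in sinusoids.

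Of the 2 regulators of anaphase tested, 1 was called in each comparison. The E2 enzyme of the APC/C, ube2c, was at 104 and 157 CPM in the ZKS libraries, 1.14 and 0 in pericytes and 11.7 and 0.25 in sinusoids. It was called against both groups, by 6.20 ± 1.02 (adjusted p = 0.00466) and by 4.86 ± 1.02 (adjusted p = 0.0122). The APC/C activator cdc20 was at 137 and 139.6 CPM in the ZKS libraries, 7.99 and 11.9 in pericytes and 107.5 and 4.74 in sinusoids. Its log2 differences were 3.30 ± 1.09 and 2.25 ± 1.09, and it passed the test in neither comparison (adjusted p = 0.0524 and 0.165), though no sinusoid or pericyte value reached the ZKS values.

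Kinesins and spindle proteins gave the most calls against pericytes, 8 of 10, and 4 of 10 against sinusoids. The spindle assembly factor tpx2, which activates Aurora A, was at 370.5 and 321 CPM in the ZKS libraries, 14.8 and 7.30 in pericytes and 166 and 3.45 in sinusoids. The pole-separating motor kif11 was at 298 and 271 CPM in the ZKS libraries, 11.0 and 16.9 in pericytes and 142 and 11.0 in sinusoids. Both were called against pericytes (tpx2 4.52 ± 1.36, adjusted p = 0.0387, and kif11 3.88 ± 0.91, adjusted p = 0.0168) and neither against sinusoids (adjusted p = 0.0995 and 0.0756), where the first sinusoid library stood between the other groups. Both PRC1 copies, which cross-link antiparallel microtubules of the midzone, were called in both comparisons. Copy ENSDARG00000005993 was at 153 and 155 CPM in ZKS cells and at 1.43 to 13.8 CPM in the other niche libraries, and copy ENSDARG00000100918 was at 146 and 118 CPM and at 3.26 to 31.6 CPM. The other calls against pericytes were kif23, nusap1, aspm and hmmr, and those against sinusoids were kif20a and hmmr. The chromosome motor kif4 was low throughout, with 5.29 and 3.64 CPM in ZKS cells and 0.57 to 3.81 CPM elsewhere in the niche set.

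In the chromosomal passenger complex, which carries Aurora B to centromeres, survivin (birc5a) was at 9.18 and 14.98 CPM in the ZKS libraries, 0 and 0.57 in pericytes and 3.66 and 0.49 in sinusoids. It was higher in ZKS cells than in pericytes by 3.10 ± 0.66 (adjusted p = 0.0119) and just missed the threshold against sinusoids (2.1 ± 0.66, adjusted p = 0.0502). Borealin (cdca8) was at 22.9 and 28.7 CPM in the ZKS libraries, 0.86 and 1.43 in pericytes and 38.4 and 0.49 in sinusoids, and was called in neither comparison.

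Centromere and kinetochore genes gave the fewest calls against pericytes for their number, 1 of 5, with 2 of 5 against sinusoids. The kinetochore motor cenpe was at 209 and 164 CPM in the ZKS libraries, 12.7 and 10.3 in pericytes and 57.3 and 1.66 in sinusoids. Its log2 difference was 3.5 ± 1.15 from pericytes (adjusted p = 0.0518) and 3.69 ± 1.15 from sinusoids (adjusted p = 0.0496), so the sizes were alike and fell on either side of the threshold. Of the microtubule-binding Ndc80 complex, ndc80 was at 60.3 and 72.5 CPM in the ZKS libraries, 8.99 and 19.2 in pericytes and 45.4 and 5.66 in sinusoids. Its partner nuf2 was at 63.7 and 65.2 CPM in the ZKS libraries, 7.28 and 4.30 in pericytes and 14.3 and 3.32 in sinusoids. Of these subunits nuf2 was called in both comparisons (2.92 ± 0.56, adjusted p = 0.00804, and 2.78 ± 0.56, adjusted p = 0.0105), and ndc80 and spc25 were called in neither.

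Of the 3 cytokinesis genes, 2 were called in each comparison. Anillin (anln), the scaffold of the contractile ring, was at 409 and 348 CPM in the ZKS libraries, 4.71 and 23.5 in pericytes and 40.7 and 8.62 in sinusoids. The centralspindlin subunit racgap1 was at 143 and 126 CPM in the ZKS libraries, 0.86 and 8.59 in pericytes and 16.2 and 1.91 in sinusoids. Both were called against pericytes (anln 4.60 ± 0.79, adjusted p = 0.00554, and racgap1 4.64 ± 0.97, adjusted p = 0.0113) and against sinusoids (3.99 ± 0.79, adjusted p = 0.0101, and 4.04 ± 0.97, adjusted p = 0.0201). The third, ect2, was called in neither (adjusted p = 0.0648 and 0.106).

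Among chromosome structure genes, 4 of 7 were called in each comparison, and they were smc2, smc4, ncaph and top2a in both. Topoisomerase II alpha (top2a), which untangles sister chromatids, was at 765 and 635 CPM in the ZKS libraries, 41.7 and 35.5 in pericytes and 132 and 7.63 in sinusoids. The condensin core subunit smc4 was at 302 and 297 CPM in the ZKS libraries, 20.3 and 7.16 in pericytes and 85.7 and 7.02 in sinusoids. The chromosome surface protein mki67, the standard mark of cycling cells, was at 198 and 175 CPM in the ZKS libraries, 23.1 and 27.8 in pericytes and 134 and 11.3 in sinusoids. The ZKS libraries were the highest for all 3 genes, and mki67 did not pass the test (2.42 ± 0.87 against pericytes, adjusted p = 0.0664, and 1.96 ± 0.87 against sinusoids, adjusted p = 0.132).

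One condensin subunit went against the rest. The ncapg gene, which encodes a HEAT-repeat subunit of condensin I, was at 1.08 and 1.32 CPM in the ZKS libraries, 11.7 and 2.15 in pericytes and 0.60 and 0 in sinusoids. Its partners in the same complex, smc2, smc4, ncapd2 and ncaph, were at 34.3 to 302 CPM in the ZKS libraries. In uncultured DP cells ncapg was at 201.9 and 97.1 CPM, in a set normalised apart from this one. Its difference between ZKS cells and pericytes was -1.79 ± 0.71 and did not pass the test (limma adjusted p = 0.0892). Over 15 alternatives this difference ran from -3.01 to -0.79, and the pericyte libraries themselves lay far apart.

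**Figure D3:**
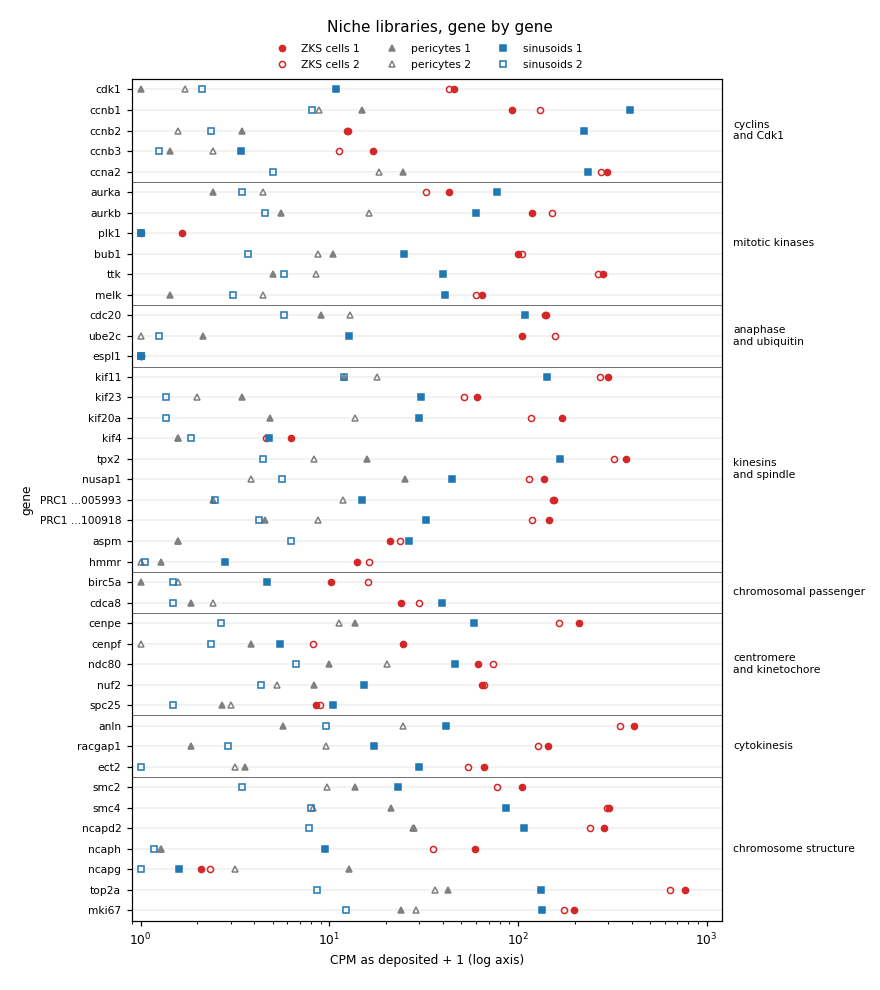
Deposited CPM + 1 of each gene (rows, grouped by role) in the 6 niche libraries, on a log axis. Red circles are ZKS cells, grey triangles pericytes and blue squares sinusoids, filled for replicate 1 and open for replicate 2. The filled blue squares of sinusoid replicate 1 lie to the right of the open blue squares in all 39 tested genes and to the right of both red circles in 6 genes. How often all genes showed these orders was not counted.

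The sinusoid libraries parted from each other across the whole set. The 41 genes summed to 2452 CPM in sinusoid replicate 1 and 124.5 CPM in replicate 2, which are 47.6% and 2.42% of the ZKS mean. Replicate 1 was above replicate 2 in all 39 tested genes, with a median ratio of 8.08 on CPM + 1 (from 1.6 for ncapg to 95.6 for ccnb2), where the median over all genes tested was 1.31. A ratio of 4 or more was seen in 32 of the 39 (82.1%) and in 8.73% of all genes tested. Among the 39 genes the reads in replicate 1 ran from 8 for ncapg to 5209 for ccnb1, with 24 for hmmr and 2991 for ccnb2. Replicate 1 was above both pericyte libraries in 38 genes, while replicate 2 was below both in 24 and above both in 3. How often all genes showed these orders was not counted, so these numbers describe the set only. By contrast, the ratio of ZKS replicate 1 to replicate 2 had a median of 1.08 and ranged from 0.637 for birc5a to 3.0 for cenpf.

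The first sinusoid library did not simply hold a fixed fraction of the ZKS levels. Relative to the ZKS mean its level on CPM + 1 had a median of 0.356, from 0.0957 for a PRC1 copy (ENSDARG00000005993) to 18.0 for ccnb2, beside a median of 1.1 over all genes. It exceeded both ZKS libraries for ccnb1, ccnb2, aurka, aspm, cdca8 and spc25, and how often all genes did so was not counted. By role, the median ratio was 0.825 for cyclins and Cdk1 and 0.127 for the cytokinesis genes, with the other roles between 0.289 and 0.912. The cyclins and Cdk1 summed to 859.8 CPM there, against 460.1 and 465.9 CPM in ZKS cells, while the cytokinesis genes summed to 85.6 CPM against 616 and 527 CPM. These ratios are a description of 1 library and were not tested.

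Markers of several other cell types stood apart in the same library, of renal tubule and of some blood cells. The 13 erythroid markers summed to 2216 and 811 CPM in sinusoid replicates 1 and 2, against 12.9 and 13.8 CPM in ZKS cells and 368 and 491 CPM in pericytes, with 12 and 11 of the 13 above 0 in sinusoids. Among them the erythroid factor klf1 was at 50.0 and 21.2 CPM, GATA1 (ENSDARG00000013477) at 10.6 and 2.09 CPM, the anion exchanger SLC4A1 (ENSDARG00000012881) at 846 and 188 CPM and the globin gene hbaa1 at 1032 and 483 CPM. The 7 neutrophil markers summed to 3213 and 1150 CPM in sinusoids, with 7 and 5 above 0, and lyz among them was at 2.24 and 0.18 CPM. The 22 macrophage markers summed to 1508 and 1672 CPM, the 8 B cell markers to 267 and 221 CPM, and the 19 endothelial markers to 29732 and 28345 CPM. In pericytes the neutrophil list summed to 1025 and 712 CPM, the macrophage list to 4652 and 5625 CPM and the B cell list to 110 and 76.3 CPM. Of the sinusoid libraries, replicate 1 thus had the higher erythroid and neutrophil sums. It did not have the higher macrophage sum, and the endothelial sums of the sinusoid libraries were close to each other. The 15 renal tubule markers summed to 2313 and 1084 CPM in sinusoids, with 12 and 8 above 0, and without slc20a1a (ENSDARG00000010641) the other 14 summed to 1316 and 7.56 CPM. These 14 summed to 317 and 494.5 CPM in pericytes and to about 10 CPM in each ZKS library. Among them the sodium pump gene atp1a1a.4 was at 573 and 0.86 CPM in sinusoid replicates 1 and 2, cdh17, a cadherin, at 366 and 0.12 CPM, and slc5a2, a glucose transporter, at 134 and 0.74 CPM. Tubule markers other than slc20a1a were therefore near 0 in replicate 2 and not in replicate 1. The part of other cells in the mitosis values of that library was not tested. In ZKS cells the macrophage, B cell and T cell lists each summed to under 3 CPM, and the 7 neutrophil markers to 172 and 159 CPM, of which 1 mmp13 identifier (ENSDARG00000100794) made up 172 and 158 CPM and the other 6 summed to 0.54 and 1.62 CPM.

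Pericytes and sinusoids gave only 2 calls among the 39 genes tested, 1 higher in pericytes (2.56%) and 1 lower, where 25.5% of all genes tested were called, 15.2% higher and 10.2% lower. The median log2 change was -0.63, beside 0 over all genes. The groups did not overlap in 1 gene higher and 3 lower in pericytes, against 16.6% and 18.2% of all identifiers. The call in the higher direction was ncapg (2.51 ± 0.71, adjusted p = 0.0425). It was kept under 3 of 15 alternatives, with adjusted p from 0.0166 to 0.192, and was lost without scaling. The call in the lower direction was aspm, a protein of the spindle poles, at 0.57 CPM in both pericyte libraries and at 25.5 and 5.23 CPM in the sinusoid libraries (-2.98 ± 0.65, adjusted p = 0.0178). It was kept under 11 of 16 alternatives, with adjusted p from 5.83e-05 to 0.0963. The calls changed with single libraries left out, and so did those over all genes. The median log2 change was -0.63 without either ZKS library, and -0.71 and -0.76 without pericyte replicate 1 or 2. The direction of most of these genes between pericytes and sinusoids turned on which sinusoid library was used: the median log2 change was 0.60 without replicate 1 and -2.02 without replicate 2.

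A list of 116 other identifiers for genes of mitosis entry, the checkpoint, the APC/C, further kinesins and kinetochore proteins, cohesin, centrosome copying and G2/M transcription leaned the same way. Of 102 tested, 44 (43.1%) were higher in ZKS cells than in pericytes and 1 was lower, beside 14.7% and 22.6% of all genes tested, with a median log2 change of 2.12, and the median was the same with the 5 genes at 0 in a whole group set to their bounds. The 3 calls of largest size were foxm1, the transcription factor of G2/M genes, at 93.2 and 72.4 CPM in ZKS cells and 1.14 and 0 CPM in pericytes (5.56 ± 0.86, adjusted p = 0.00378), the kinetochore scaffold knl1 (4.97 ± 1.1, adjusted p = 0.0138), and the nuclear import factor kpna2 (4.88 ± 0.93, adjusted p = 0.00777). By subgroup, 7 of 9 spindle checkpoint, 4 of 5 cytokinesis, 6 of 10 entry control and 9 of 16 kinesin and spindle genes were higher, against 3 of 14 APC/C, 2 of 10 condensin II and cohesin and 0 of 6 centrosome genes, and the APC/C and cohesin counts lie near the 14.7% of all genes. Far fewer of this list stayed called with either ZKS library left out, and fewer with either pericyte library left out. In each case the share called was below that of all genes in the same fit.

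The exception was cdc25d, a member of the Cdc25 family of phosphatases that activate Cdk1. It was at 0 in both ZKS libraries and at 11.9 and 20.0 CPM in pericytes, at least 49.2-fold lower in ZKS cells by a floor of 3 reads in 1 library (adjusted p = 0.0012). Its family member cdc25b was at 516 and 524 CPM in ZKS cells and at 20.7 and 19.9 CPM in pericytes (4.21 ± 0.59, adjusted p = 0.00253). In sinusoids cdc25d was at 0.15 and 0 CPM and cdc25b at 66.4 and 11.9 CPM.

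Against sinusoids 28 of the 102 (27.5%) were higher in ZKS cells and 0 lower, beside 14% and 17.5% of all genes tested, with a median of 1.72, led by kpna2 (4.34 ± 0.93, adjusted p = 0.0131), the checkpoint ATPase trip13 (3.95 ± 1.04, adjusted p = 0.0275) and cdc25b (3.89 ± 0.59, adjusted p = 0.00346). None of the list stayed called without either ZKS library, where calls over all genes fell but did not vanish. Fewer were called without either pericyte library or sinusoid replicate 2, and more without sinusoid replicate 1. Between pericytes and sinusoids 1 was higher (cdc25d, adjusted p = 0.00191) and 5 were lower in pericytes, beside 15.2% and 10.2% of all genes tested. These were kif14, numa1, cks1b, lin37 and lmnb1, of which lmnb1, the B-type lamin, stood at 65.7 and 62.0 CPM in the pericyte libraries and at 185 and 129 CPM in the sinusoid libraries (-1.11 ± 0.23, adjusted p = 0.0155). Calls in the list fell without either ZKS library or pericyte replicate 2 and rose without sinusoid replicate 2, while those over all genes fell each time.

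In the DP set the mitosis genes were present in uncultured cells and listed at or near 0 in co-culture. They summed to 1854 and 2573 CPM in uncultured DP cells, 99.9 and 86.2 CPM in co-cultured cells, and 136 and 51.6 CPM in treated cells, and 21 and 25 of the 41 stood at 10 CPM or more in the uncultured libraries against 2, 1, 1 and 1 in the other 4. In 26 of the 41 genes (63.4%) both uncultured libraries were above all 4 co-culture libraries, a pattern of 4.23% of all identifiers, and in 0 were they below, against 1.08%. Only 15206 of the 32047 identifiers were above 0 in any DP library. The rest could show no such order, which lowers these shares of all identifiers and those that follow. Taken by group, both uncultured libraries lay above both co-cultured libraries in 27 genes, against 7.79% of all identifiers, and above both treated libraries in 27 genes, against 8.3%. The opposite order was seen in 0 genes of the set in either comparison, against 3.95% and 4.46% of all identifiers. These comparisons share the uncultured libraries. Of the 17 genes at 10 CPM or more in both uncultured libraries, 9 (52.9%) were under 1 CPM in all 4 others, against 6.04% of the 3595 genes that met the same starting level.

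No gene of the set passed the test in the DP comparisons, and neither did any other gene. Limma called 0 of 8795 genes in each of them, with a smallest adjusted p of 0.169 for co-cultured against uncultured cells and 0.144 for treated against uncultured cells. At an unadjusted p under 0.05 stood 994 genes (11.3%) in the first and 1185 (13.5%) in the second, and 20 and 22 of the 25 mitosis genes tested. That count cannot be read as support, because 15 of the 25 passed the filter only through the uncultured libraries, in which they are high, against 5.17% of all genes that passed. The 16 genes that did not pass were ccnb2, ccnb3, aurka, plk1, bub1, melk, ube2c, espl1, kif4, a PRC1 copy (ENSDARG00000100918), hmmr, birc5a, cenpe, cenpf, nuf2 and ect2. The median log2 change of the 25 was -5.07 and -5.62, beside -0.45 and -0.63 over all genes, and these sizes depend on the pseudocount since 11 of the 25 were listed at 0 in both co-cultured libraries and 15 in both treated libraries. The filter also pushed these medians down. Of the 25, 22 reached 1 CPM in fewer than 2 libraries outside the uncultured group, against 25.4% of all genes that passed. The medians are therefore a description and no support. Without uncultured replicate 1 or 2 the median was -6.08 and -4.83 for co-cultured cells, and -6.08 and -5.07 for treated cells. Calls in such fits are no support either. The 1 uncultured library is then assumed to vary like groups in which many of these genes were listed at 0.

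**Figure D4:**
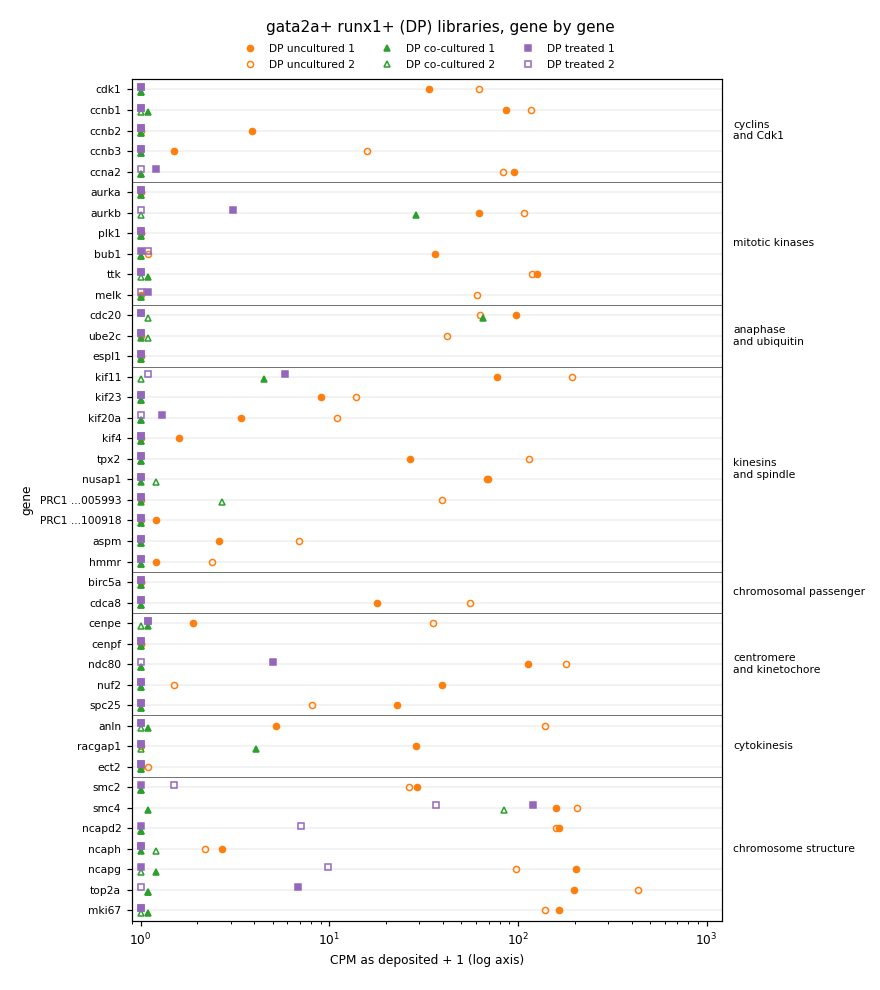
Deposited CPM + 1 of each gene (rows, grouped by role) in the 6 DP libraries, on a log axis, with a value of 1 standing for genes listed at 0. Orange circles are uncultured, green triangles co-cultured and purple squares treated cells, filled for replicate 1 and open for replicate 2. Most green and purple symbols sit at 1, and smc4 is the gene with symbols of both co-culture groups above 30.

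Among cyclins and Cdk1 the parting was complete for 4 of 5 genes. Uncultured cells held cdk1 at 32.8 and 61.1 CPM, and it was listed at 0 in the 4 co-culture libraries. They held ccnb1 at 85.9 and 116.6 CPM, with 0.1 CPM in co-cultured replicate 1 and 0 in the other 3. They held ccna2 at 93.9 and 82.6 CPM, with 0.2 CPM in treated replicate 1 and 0 in the others. For these genes no co-culture library came near the uncultured values. The cyclin ccnb3 was at 0.5 and 14.9 CPM uncultured and listed at 0 elsewhere, and ccnb2 was at 2.9 CPM in 1 uncultured library and at 0 in the other 5.

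The kinases and anaphase regulators held exceptions. The checkpoint kinase ttk was at 125.0 and 117 CPM in uncultured cells and at 0.1 CPM or 0 in the other 4 libraries. Aurora B (aurkb) was at 61.5 and 107 CPM uncultured, 27.9 and 0 CPM co-cultured, and 2.1 and 0 CPM treated. For cdc20 the values were 96.1 and 61.6 CPM uncultured, 64.5 and 0.1 CPM co-cultured, and 0 and 0 treated, so that co-cultured replicate 1 lay within the uncultured range while both treated libraries were listed at 0. Aurora A, plk1, birc5a, cenpf and espl1 were listed at 0 in all 6 DP libraries, including the uncultured ones in which their partners were high, and of these aurka was at 31.5 to 42.0 CPM in ZKS cells of the niche set.

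The spindle, kinetochore and chromosome genes went the same way. The motor kif11 was at 76.5 and 192 CPM uncultured, 3.5 and 0 CPM co-cultured, and 4.8 and 0.1 CPM treated. The spindle factor tpx2 was at 25.8 and 113 CPM uncultured and listed at 0 in the other 4 libraries. The kinetochore gene ndc80 was at 112.5 and 178 CPM uncultured, 0 and 0 co-cultured, and 4.0 and 0 CPM treated. In each of these genes both uncultured libraries were the highest. Topoisomerase top2a was at 197.5 and 430.0 CPM uncultured, 0.1 and 0.1 CPM co-cultured, and 5.8 and 0 CPM treated, a log2 change of -8.14 ± 1.65 on co-culture (limma adjusted p = 0.169). The cycling mark mki67 was at 164 and 138 CPM uncultured, 0.1 and 0 CPM co-cultured, and 0 and 0 treated, and the condensin gene ncapd2 at 164 and 159 CPM, 0 and 0, and 0 and 6.1 CPM.

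Condensin's core subunit smc4 was the exception among the chromosome genes. It was at 157 and 205 CPM in uncultured cells, 0.1 and 83.8 CPM in co-cultured cells, and 118.5 and 35.9 CPM in treated cells. Both uncultured libraries were still the highest, but 3 of the 4 co-culture libraries held 35.9 CPM or more. Its partner smc2 was at 28.1 and 25.6 CPM uncultured and at 0.5 CPM or less in the other 4.

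The uncultured libraries did not hold the same genes. Of 29 mitosis genes at 10 CPM or more in either uncultured library, 8 (27.6%) were under 1 CPM in the other, which is close to the 30% of all 6893 genes that met the same starting level. Examples are melk at 0 and 60.0 CPM, ube2c at 0 and 41.1 CPM, PRC1 copy ENSDARG00000005993 at 0 and 38.4 CPM, bub1 at 35.3 and 0.1 CPM, nuf2 at 38.6 and 0.5 CPM and racgap1 at 27.7 and 0 CPM. Single mitosis genes thus came and went between replicates about as often as genes in general, while their summed level was of the same order in both.

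No difference between treated and co-cultured cells was detected in these genes. Of the 25 tested, 0 passed and 0 stood at an unadjusted p under 0.05, where 9.6% of all genes did, and the smallest adjusted p over all genes was 0.294. The groups did not overlap in 1 of the 41 genes, cdc20, lower in treated cells, against 4.72% of all identifiers, and none was higher without overlap, against 4.63%. Of the 41 genes, 18 were listed at 0 in all 4 of these libraries, so no difference could be seen in them.

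The other mitosis genes also summed to less in co-culture, with a smaller contrast in the sums, which genes at high levels can carry. The 116 identifiers summed to 3837 and 4858 CPM in uncultured cells, 1376 and 1158 CPM in co-cultured cells, and 862 and 1544 CPM in treated cells, so that the 4 co-culture libraries held 19.8% to 35.5% of the uncultured mean, against 2.33% to 6.14% for the mitosis and G2/M set itself. The shares of genes listed at 0 were closer. In both co-cultured libraries 77 of the 116 were at 0, beside 25 of the 41 in the set. In both treated libraries the numbers were 75 and 28. Of the 116, both uncultured libraries were above both co-cultured libraries in 55 and below them in 3, beside 7.79% and 3.95% of all identifiers. Of 66 tested, limma called 0 and 36 stood at an unadjusted p under 0.05, where 11.3% of all genes did. That count is no support either, since 31 of the 66 passed the filter only through the uncultured libraries. Examples of lower genes are cdc25b at 37.7 and 48.3 CPM uncultured, 0 and 0 co-cultured and 3.4 and 11.7 CPM treated, and the Cdk subunit gene cks1b at 25.0 and 37.7 CPM uncultured and listed at 0 in the other 4. Other genes were not lower. The cohesin gene smc1a (ENSDARG00000058203) was at 146.5 and 138.7 CPM uncultured, 317.1 and 153.9 CPM co-cultured and 186.4 and 116.4 CPM treated.

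DNA replication genes were set beside these as the genes active before G2 in a dividing cell. The 35 S phase identifiers summed to 16308 and 10487 CPM in uncultured DP cells, 1347 and 4544 CPM in co-cultured cells, and 774 and 1043 CPM in treated cells. Co-cultured replicate 2 thus held 33.9% of the uncultured mean of S phase genes, where its mitosis and G2/M genes held 3.89%. In the niche set the S phase sums were 6476 and 6347 CPM in the ZKS libraries, 1636 and 778 in pericytes and 2417 and 795 in sinusoids. Both ZKS libraries and sinusoid replicate 1 were the highest for both lists.

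Other measures moved with the DP groups too. Genes above 0 numbered 9712 and 9541 in uncultured libraries and 7329 to 7834 in the co-culture libraries, and their part in the result was not tested. The 10 blood stem and progenitor markers summed to 898 and 1020 CPM in uncultured cells and to 1550 to 1776 CPM in the 4 co-culture libraries, and the members did not move as one. The transcription factor genes meis1, lmo2 and tal1 had their lowest co-culture value above both uncultured values, with meis1 at 245 and 280 CPM uncultured and 468 to 704 CPM in co-culture. The thrombocyte and progenitor integrin itga2b went the other way, at 36.9 and 63.5 CPM uncultured and listed at 0 in the other 4 libraries, and spi1 was at 1.0 and 71.7 CPM uncultured and likewise listed at 0 elsewhere. The progenitor factor myb was at 137 to 315 CPM in all 6, and 9 of the 10 markers were above 0 in each uncultured library against 6 or 7 in the others. The 12 stromal markers summed to 114.2 and 1.8 CPM in uncultured cells and to 0.3, 0, 35.1 and 1.9 CPM in the co-culture libraries. Among them twist1 (ENSDARG00000030402) was at 114.2 CPM in uncultured replicate 1 and at 35.1 CPM in treated replicate 1. The list is not particular to ZKS cells. In the niche set it came to 1833 and 1624 CPM in ZKS cells and to 18708 and 19016 CPM in pericytes. The stromal factor PRRX1 (ENSDARG00000033971), at 1077 and 943 CPM in ZKS cells and 98.1 and 68.3 CPM in pericytes, was listed at 0 in all 6 DP libraries. No other identifier of the list was higher in ZKS cells than in pericytes.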

How the data were processed

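The 12 libraries were made by Quartz-seq, per the labels' protocols, in which messenger RNA of sorted cells is reverse transcribed from an oligo-dT primer, tailed and amplified by PCR. No molecular identifiers are described, so the read floors cover counting error only. Values after ± are standard errors of the limma fit, which come from the spread between libraries. HISAT2 2.1.0 and Subread 1.6.4 with build GRCz11 are named in the submitters' processing notes. The authors deposited 1 table of CPM per library for 32047 identifiers, and 28978 of these were paired with a symbol.

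The niche and DP sets were deposited with different rounding and were fitted apart. In niche libraries 100% of values came out as whole reads within 0.1 read. For ZKS replicate 2 the low values alone could not show this. Even numbers made up 54.26% to 61.04% of recovered counts over 0, for a reason not tested here. The DP values gave no depth.

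Genes with at least 1 CPM in 2 or more of the 6 libraries of a set were tested with limma 3.58.1 (trended empirical Bayes, R 4.3.3) on log2(CPM + 1) after TMM scaling (edgeR 4.0.16), and 3 groups of a set shared 3 residual degrees of freedom. Tests were two-sided, with Benjamini-Hochberg adjustment over all genes tested. The scripts were tested on simulated data. DESeq2 1.42.0 and edgeR on recovered reads were alternatives. Same-numbered replicates did not deviate together, so numbers were not used as a block.

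Genes were named by role: the 2 with the highest niche mean of each role, those against their role or alone in a call, and for other mitosis genes the 3 largest calls and calls against the main direction. The members and lists were chosen with earlier results of these data known, and alternatives for the list of other mitosis genes were chosen after seeing the data.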

Additional observations from a re-analysis of the deposited data

How the results depend on the processing

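Over the alternatives, 23 genes called in ZKS cells against pericytes became 36 in a fit of only the 4 libraries compared, 11 in 1 fit of all 12 libraries, 15 with edgeR on recovered reads, and 0 to 35 with each library left out in turn. The 17 called against sinusoids became 9 with a pseudocount of 0.1, 9 with no filter, 7 in 1 fit of all 12 libraries, 5 with edgeR, and 0 to 33 with a library left out. The 2 called in pericytes against sinusoids became 1 with CPM as deposited, with pseudocounts of 0.1 or 5, with no filter, with a filter of 10 CPM, in 1 fit of all 12 libraries and with edgeR, 0 with only the 4 libraries, 7 with DESeq2, and 0 to 18 with a library left out. The 0 called in DP cells became 11 for co-cultured and 13 for treated against uncultured cells in 1 fit of all 12 libraries. Treated against co-cultured cells stayed at 0. Calls with an uncultured library left out are no support, for the reason given above. The cause of these changes was not tested. Calls over all genes changed too. The 4-library fits called 6934 of 14392 genes for ZKS cells against pericytes and 2332 of 14854 for pericytes against sinusoids. For ZKS cells against sinusoids the 4-library fit called 14 of 39 genes of the set, a smaller share than the 6044 of all 13651. In that comparison a pseudocount of 0.1 gave 4908 of all 15916 genes, a larger share than the 9 of 39 in the set. With no filter it gave 4078 of 24998. Of 16860 genes, the 12-library fit called 3551, 2678 and 2755 in the niche comparisons, in the order above. It called 618, 817 and 489 in the DP comparisons, in the order above. DESeq2 called 3812 of 15916 for pericytes against sinusoids. Counts with a library left out come from fits with 1 library in a group, which is assumed to vary like the other groups. Such counts are no support for a difference. No paired analysis is implied by the labels: same-numbered replicates had correlated deviations of -0.0112 to 0.064 in the niche set and -0.00953 to 0.00139 in the DP set. A fit with the replicate block gave 30, 20 and 2 genes in the niche comparisons, beside 5809, 4907 and 3808 of all 15916 genes. It gave 0 in each DP comparison, as over all genes. With CPM as deposited, the median of all genes was 0.098 in place of -0.19 for ZKS cells against pericytes, 0.033 in place of -0.09 against sinusoids, -0.12 in place of 0 for pericytes against sinusoids and -0.51 in place of -0.63 for treated against uncultured DP cells. Some single genes turned direction. Against sinusoids, ccnb1 went from 0.73 to -0.88 with edgeR, -0.90 with DESeq2 and -1.90 to 3.31 with a library left out, the lowest without sinusoid replicate 2 (limma adjusted p = 0.0473, over its alternatives 0.0138 to 0.922). With a library left out, the change against sinusoids ran from -4.23 to 2.04 for ccnb2, from -0.32 to 1.41 for aspm and from -0.64 to 3.84 for cdca8, with the ends given by the sinusoid replicates. In DP cells racgap1 ran from -3.92 to 1.00 for co-cultured and from -4.93 to 0 for treated cells, with the ends given by the uncultured replicates. Unknown depth in the DP set limits what a listing at 0 shows.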
